A study of Mus musculus with 22 samples.

Results

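The cells described here are germinal center B cells of mouse spleen in which Myc transcript was detected, split by whether they carried transcripts of the DNA replication machinery. A cell was kept when it had at least 500 detected genes and at most 10% of its unique molecular identifiers (UMIs, each standing for 1 captured transcript) from mitochondrial genes. A kept cell counted as Myc-detected when it had at least 1 Myc UMI. Among Myc-detected cells, the number of 8 genes with a UMI was counted: Mcm2, Mcm3, Mcm4, Mcm5, Mcm6 and Mcm7, which form the replicative helicase, Rrm2, a ribonucleotide reductase subunit, and Pclaf, a partner of PCNA. Cells with at least 4 of the 8 are called cycling, and cells with 0 or 1 are called not cycling. Of 8873 cells in the table, 6741 passed the cell filter, 1093 of these were Myc-detected, and 970 fell into one of the arms, 737 cycling and 233 not cycling. The other 123 had 2 or 3 of the 8 genes and are in neither arm.

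Male C57BL/6 mice aged 8 weeks were immunized in the peritoneum with 100 microgram of NP-KLH, a hapten on a carrier protein, or of ovalbumin (OVA), each with alum and LPS. The labels name no engineered allele for these mice. From NP-KLH mice, NP-binding germinal center B cells (7AAD-, B220+, Fas high, GL-7 high, NP+) were sorted on day 13 into 2 libraries, NP 1 and NP 2. From OVA mice all germinal center B cells were sorted without an antigen gate into 1 library, OVA 1, whose day is not given in the sources used here, so antigen, gate and library cannot be told apart. Transcripts were captured at their 5' ends in droplets, with immunoglobulin sequences from the same cells.

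A germinal center is a structure in which B cells alternate between a light zone, where they take up antigen and present it to T cells, and a dark zone, where they divide and mutate their antibody genes. MYC is a transcription factor that is switched on briefly in the few light zone cells that have just received T cell help, through the antigen receptor, CD40 and NF-kB. It drives growth in cell mass and entry into the cell cycle, and it fades while the divisions that it licensed go on.

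In the order NP 1, NP 2 and OVA 1, used throughout, the cycling arm held 241, 209 and 287 cells and the not cycling arm 46, 45 and 142. Cycling cells were more deeply covered, with medians of 10453, 13096 and 13636 UMIs against 4463.5, 6769 and 5686.5. Levels are therefore given as CPM (a gene's UMIs scaled to a common total per library and arm), so that a lower CPM is a lower share of the transcripts captured. UMIs per cell are given for some genes only. For other genes with a lower CPM the reading per cell can differ, as cycling cells held more UMIs. All tests were repeated after every cell was thinned to 2500 UMIs and sorted again on what was left, which gave 172 cycling and 199 not cycling cells. The number of animals behind each library is not given, so the p-values measure the spread between these 3 libraries. Of the 970 cells, 9 carried a barcode also found in another library.

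The genes that sorted the cells are described without a test. Mcm5 had a UMI in 94.6%, 94.3% and 92.7% of cycling cells and in 2.2%, 13.3% and 9.2% of not cycling cells. Rrm2 had a UMI in 65.6%, 62.7% and 59.9% of cycling cells and in 0.0%, 0.0% and 1.4% of not cycling cells. Myc itself stood at 206.7, 136.4 and 179.7 CPM in cycling cells and at 375.9, 329.0 and 299.3 CPM in not cycling cells, but per cell the means were 2.394, 1.976 and 2.547 UMIs against 1.804, 2.244 and 1.782. At the limit of the not cycling arm, the 124 Myc-detected cells just inside it, with 1 of the 8 genes, had 186 CPM of the 8 genes in all and a median of 5986 UMIs, and the 62 cells just outside it, with 2, had 352 CPM and 7348.5 UMIs. At the limit of the cycling arm, the 61 cells just outside it, with 3, had 549 CPM and 7002 UMIs, and the 55 cells just inside it, with 4, had 919 CPM and 8498 UMIs.

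A single Myc UMI is weak evidence for one cell. Myc was detected in 12.4%, 16.2% and 20.4% of all kept cells, and in 2 of 5, 2 of 16 and 4 of 30 cells that had T cell or myeloid markers and no B cell marker. Those 51 cells had a median of 4676 UMIs against 6908 in all kept cells. B cell identity held in both arms: Cd79a, part of the antigen receptor, was at 1460, 2140 and 2108 CPM in cycling and 2440, 3663 and 3659 CPM in not cycling cells. Cells with at least 3 markers of other cell types numbered 12, 12 and 48 in the cycling arm and 2, 0 and 16 in the not cycling arm. The 7 natural killer cell markers in the table summed to 480.1, 0.0 and 182.2 CPM there against 1.1, 0.0 and 3.4 in the cycling arm, where 4, 7 and 4 of the 7 were at 0, and the 106 UMIs of NP 1 came from 1 cell. The 15 myeloid markers summed to 240.0, 6.5 and 91.1 CPM against 1.8, 3.3 and 14.8, with 11, 13 and 4 at 0 in the not cycling arm. The 13 T cell markers summed to 185.7, 169.4 and 309.9 CPM against 112.8, 74.3 and 103.5, and 11 of the 13 were at 0 in not cycling cells of both NP libraries. Cells with UMIs of at least 2 of 7 genes of recirculating or memory B cells (among them Klf2, Ccr6, S1pr1, Gpr183, Hhex and Cd38) made up 26.1%, 13.3% and 38.7% of the not cycling arm and 1.7%, 2.9% and 8.0% of the cycling arm. The fit was repeated with these cells left out, and its values are given below for some lists and genes only.

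Of 8512 genes tested with edgeR on sums per library and arm, 1469 (17.3%) were higher and 1225 (14.4%) lower in cycling cells, with a median log2 fold of -0.02 over all genes. After thinning, 2237 genes had enough UMIs, and 235 (10.5%) were higher and 246 (11%) lower. Without the OVA library the counts were 841 and 560. Without the cells carrying memory genes, 1111 of the 1469 higher and 751 of the 1225 lower genes were still called in the same direction. Every cycling library lay above every not cycling library for 1747 (20.5%) of the 8512 genes and below for 1321 (15.5%), called or not. Such separation is what no overlap of the arms means below.

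The rest of the S phase program belongs to the same phase as the 8 genes that defined the arms, so its direction is not independent of the sort. All 55 measured S phase genes were higher in cycling cells (median log2 fold 2.86), and 30 of the 33 measured after thinning. Chek1, the kinase of the replication checkpoint, was at 42.7, 35.1 and 42.2 CPM in cycling cells and had no UMI in any not cycling library. Against a floor of 3 UMIs over the whole not cycling arm it was at least 18.1-fold higher. Exo1, a nuclease of mismatch repair, and Ccne2, the S phase cyclin E2, were likewise without a UMI in the not cycling arm and at least 11.7-fold and 14.8-fold higher. Cdc6, which loads the helicase on DNA, stood at 77.2, 76.4 and 80.9 CPM against 0.0, 0.0 and 2.4, a ratio of 53.1 with a 95% counting interval of 14.7 to 439.

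Other named cell cycle genes with 1 or 2 UMIs in the not cycling arm were Clspn, Pbk, Esco2, E2f8, Brca1 and Cdc45, with ratios between 42.3 (Cdc45) and 69.2 (Clspn). Lig1, the ligase that joins Okazaki fragments, was at 235.4, 247.3 and 238.8 CPM in cycling cells and at 0.0, 10.6 and 8.5 in not cycling cells. Its log2 fold was 4.99 ± 0.27 (SE, n = 3 libraries, adjusted p = 3.45e-15). Pcna, the sliding clamp, had 373.0, 321.3 and 293.6 CPM against 48.5, 31.8 and 45.0 (log2 fold 2.89 ± 0.17, adjusted p = 2.1e-14). Uhrf1, which carries DNA methylation through replication, had 241.4, 196.6 and 219.1 CPM against 8.8, 14.1 and 15.8. Lig1, Pcna and Uhrf1 did not overlap between arms in any library, and after thinning their log2 folds were 2.87, 2.47 and 4.60.

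Genes of G2 and mitosis, which the sort did not use, were also higher: 48 of 52 measured, none lower, median log2 fold 2.34, and 15 of 17 after thinning. Top2a, the topoisomerase that untangles sister chromatids, was at 346.0, 359.5 and 350.8 CPM against 17.6, 63.6 and 48.6 (log2 fold 2.93 ± 0.18, adjusted p = 6.43e-14). Mki67, the proliferation antigen Ki-67, was at 377.3, 394.9 and 235.6 CPM against 75.0, 49.5 and 48.6 (log2 fold 2.47 ± 0.16, adjusted p = 3.09e-13). Every cycling library lay above every not cycling library for both. Ccnb1, the mitotic cyclin B1, had 45.5, 58.3 and 57.5 CPM against 26.5, 10.6 and 9.7 (log2 fold 2.08 ± 0.32). After thinning it was found in 2.82%, 2.78% and 9.23% of cycling and 2.13%, 5.13% and 6.19% of not cycling cells, too few to separate them. Mitotic transcripts were not absent from the not cycling arm, which held 0.37, 0.311 and 0.282 Mki67 UMIs per cell against 4.4, 5.44 and 3.33.

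Because these genes moved together, their promoters were searched on both strands, in the 250 bases before the RefSeq start (GRCm38.p6), for E2F-type letters (TTTCCCGC, TTTGGCGC, TTTGCCGC or TTTCGCGC), for the E-box CACGTG, for the NF-kB form GGGA, any base, then TTTCC, and for the cell cycle homology region TTTGAA of late cell cycle genes. A promoter was matched for 6781 of the 8512 genes tested. E2F letters were in 3.82% of those, in 8.2% of 1171 promoters of genes higher in cycling cells, in 1.69% of 945 of genes lower, and in 7 of 42 S phase promoters. They were also in 8 of 57 promoters of MYC target genes and 1 of 45 of G2 and mitosis genes. Among genes induced through the antigen receptor, CD40 and NF-kB they were in 1 of 27. TTTGAA was in 10.6% of promoters of tested genes, 13.5% of those higher, 9.74% of those lower and 17 of 45 G2 and mitosis promoters. It was also in 6 of 42 S phase promoters, 10 of 57 of MYC target genes and 6 of 27 of the receptor, CD40 and NF-kB genes. CACGTG was in 9.28%, 9.39% and 8.99%, and in 9 of 57 promoters of MYC target genes. In the S phase, G2 and mitosis, and receptor, CD40 and NF-kB lists it was in 5 of 42, 3 of 45 and 1 of 27. The NF-kB form was rare, in 0.354%, 0.256% and 0.847%, and in only 1 of 27 promoters of the receptor, CD40 and NF-kB genes. It was in 1 of 45 G2 and mitosis, 0 of 42 S phase and 0 of 57 MYC target promoters. Over all 27025 promoters the shares were 1.91% for E2F letters, 16.3% for TTTGAA, 6.05% for CACGTG and 0.337% for the NF-kB form. These are matches of letters, not measured binding. Below are 60 bases from each of 5 promoters, 5' to 3' on the gene's strand, with the match in capitals, for genes on both sides of the comparison: Cdc6, which loads the helicase, and Ranbp1, a nuclear transport gene and MYC target (E2F letters), Top2a and Mki67 (TTTGAA), and Nfkbia, the inhibitor that NF-kB induces (NF-kB form).
Cdc6, chr11:98907987-98908046, + strand: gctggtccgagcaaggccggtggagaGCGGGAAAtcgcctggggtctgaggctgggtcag
Ranbp1, chr16:18248698-18248757, - strand: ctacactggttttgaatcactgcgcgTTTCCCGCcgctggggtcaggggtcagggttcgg
Top2a, chr11:99024335-99024394, - strand: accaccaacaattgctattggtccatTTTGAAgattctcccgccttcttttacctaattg
Mki67, chr7:135716462-135716521, - strand: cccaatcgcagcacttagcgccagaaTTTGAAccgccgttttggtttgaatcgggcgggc
Nfkbia, chr12:55492648-55492707, - strand: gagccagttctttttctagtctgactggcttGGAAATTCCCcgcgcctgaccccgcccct

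Regulators of G1, the phase before replication, divided by type. Of 20 measured cyclins and G1 regulators, 11 were higher and 4 lower, and 1 was higher and 2 lower of 6 after thinning. Ccnd3, the D-type cyclin that sustains dark zone divisions, was at 503.5, 459.8 and 502.5 CPM in cycling cells and 238.2, 194.3 and 279.6 in not cycling cells (log2 fold 1.01 ± 0.11, adjusted p = 2.84e-08), but 0.38 with adjusted p = 0.19 after thinning. Ccnd2, the D-type cyclin induced by antigen receptor and CD40 signals and by MYC, went the other way, with 46.2, 29.5 and 15.3 CPM against 61.8, 116.6 and 55.9 (log2 fold -1.52 ± 0.24, adjusted p = 1.01e-05). The arms did not overlap for either cyclin. Ccnd2 had too few UMIs for the test after thinning, when it was found in 7.04%, 5.56% and 1.54% of cycling and 14.9%, 15.4% and 10.6% of not cycling cells.

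Cdk4, the kinase partner of D cyclins, was at 299.4, 400.4 and 362.1 CPM against 83.8, 127.2 and 132.5 (log2 fold 1.58 ± 0.13), and Ccne1, cyclin E1, at 40.9, 33.3 and 39.2 against 4.4, 3.5 and 2.4 (3.63 ± 0.46). Among brakes on division, the antiproliferative gene Btg1 was lower, 127.3, 211.2 and 152.7 CPM against 335.3, 512.2 and 442.4 (-1.42 ± 0.11), and still after thinning (-1.16, adjusted p = 8.41e-06). Cdkn1b, the inhibitor p27, was at 7.1, 7.6 and 11.8 CPM against 26.5, 14.1 and 26.7 (-1.26 ± 0.36, adjusted p = 0.0063). That call ended with DESeq2 (adjusted p = 0.09), without OVA 1 (edgeR, adjusted p = 0.122) and without the cells carrying memory genes, where its log2 fold was 0.80 with adjusted p = 0.418.

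**Figure D1:**
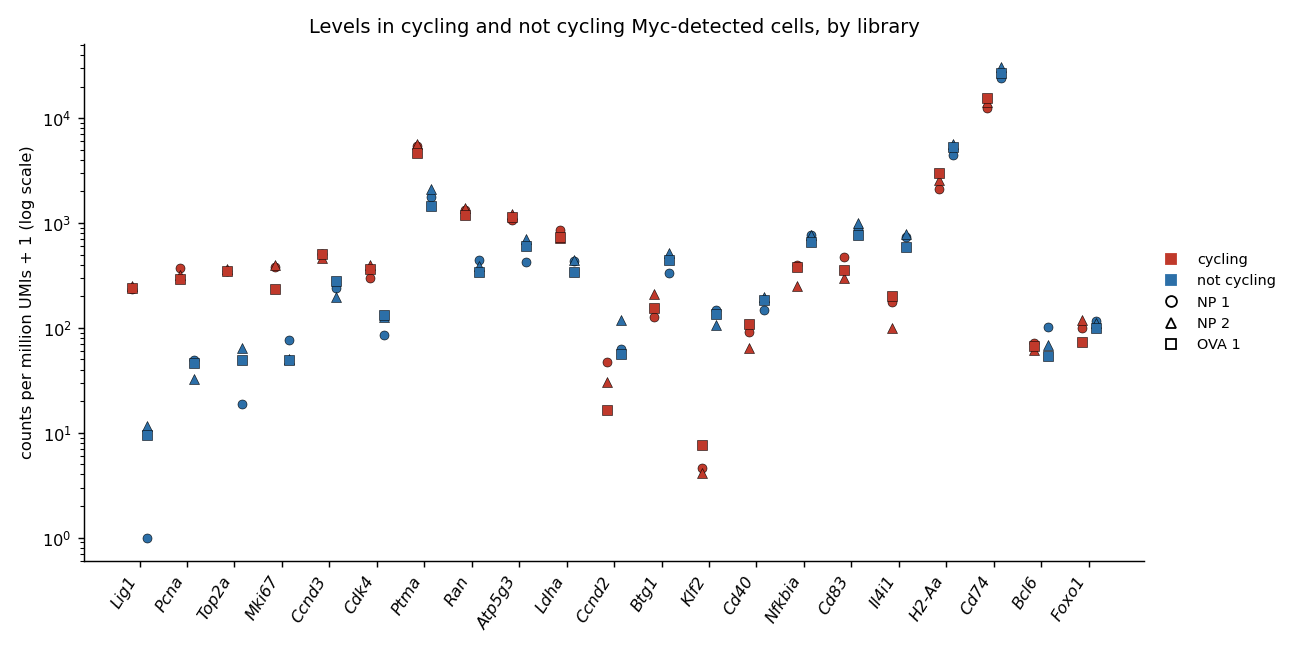
CPM plus 1, on a log axis, of 21 genes in cycling (red) and not cycling (blue) Myc-detected cells, 1 point per library. Lig1 to Ldha lie higher in cycling cells, Ccnd2 to Cd74 lie lower, and Bcl6 and Foxo1 overlap between the arms.

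MYC targets and ribosome biogenesis genes, the growth program that MYC is known to run, were higher in cycling cells with all UMIs. Of 61 measured, 36 were higher and none lower (median log2 fold 0.58). Ptma, prothymosin alpha, was at 5377, 5615 and 4698 CPM in cycling and 1783, 2105 and 1443 in not cycling cells (log2 fold 1.57 ± 0.08, adjusted p = 3.45e-15). Ran, the GTPase of nuclear transport, was at 1329, 1382 and 1181 CPM against 441.2, 388.5 and 336.7 (1.75 ± 0.10, adjusted p = 1.33e-14). Ranbp1 and Pa2g4, a growth-linked RNA-binding protein, had log2 folds of 1.86 ± 0.12 and 1.26 ± 0.12. The arms did not overlap for these 4 genes. At equal depth 6 of 44 measured members were higher and none lower (median 0.24), near the 10.5% of all genes, and Ptma, Ran, Ranbp1 and Pa2g4, at 1.12, 0.83, 0.94 and 0.74, were among them.

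Metabolic gene lists differed in how far they held at equal depth. Of 78 measured nuclear-encoded genes of oxidative phosphorylation, which makes ATP in mitochondria, 55 were higher and none lower (median 0.52), against 8 higher and 1 lower of 73 after thinning (median 0.15), a share higher that is close to the 10.5% of all genes. Cycs, cytochrome c, was at 386.9, 364.3 and 318.5 CPM against 185.3, 151.9 and 125.2 (log2 fold 1.25 ± 0.13), and 0.92 with adjusted p = 0.000887 after thinning. Atp5g3, a subunit of ATP synthase, was at 1059, 1220 and 1143 CPM against 428.0, 695.8 and 604.1 (0.98 ± 0.10), and 0.63 with adjusted p = 0.00066 after thinning. The genes of the same pathway that mitochondria encode went the opposite way, 9 of 13 lower and none higher (median -0.25), and 7 of 13 after thinning. mt-Co1, a catalytic subunit of cytochrome oxidase, was at 6433, 5377 and 4529 CPM against 9362, 7803 and 7324 (-0.59 ± 0.08). Per cell, cycling cells still held more mt-Co1, with 75.1, 74.1 and 64.0 UMIs against 46.1, 49.1 and 42.4.

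Of 16 glycolysis genes 7 were higher and none lower, and 5 of 10 after thinning. Tpi1, Pgam1 and Ldha had log2 folds of 1.26 ± 0.13, 1.11 ± 0.12 and 0.94 ± 0.10. After thinning these were 0.66, 0.78 and 0.40, of which Ldha, lactate dehydrogenase, was no longer called (adjusted p = 0.0738). In the TCA cycle 9 of 17 were higher and none lower, and 1 of 11 after thinning (Mdh1, malate dehydrogenase, 0.56), again close to the share of all genes. Among amino acid, one-carbon and mTORC1 genes 11 of 24 were higher and 5 lower. Shmt2, the mitochondrial serine hydroxymethyltransferase, was at 200.2, 173.0 and 145.1 CPM against 114.7, 67.1 and 42.5 (1.37 ± 0.18) and held after thinning (1.01, adjusted p = 0.00357). Ddit4, an inhibitor of mTORC1, was at 18.8, 9.0 and 30.3 CPM against 119.1, 42.4 and 171.4 (-2.50 ± 0.20).

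Nucleotide synthesis, which supplies replication, was higher for 20 of 26 genes and lower for none (median 1.17), and for 9 of 17 after thinning. Tyms, thymidylate synthase, was at 96.4, 91.3 and 113.2 against 4.4, 7.1 and 12.2 (3.44 ± 0.28). Chaperones were higher for 12 of 21 and lower for 2, and 2 were higher of 18 after thinning, also close to the share of all genes. Hsp90aa1, an inducible HSP90, was at 1248, 1065 and 763.0 CPM against 485.3, 356.7 and 297.8 (1.42 ± 0.10), and 0.88 after thinning. Of 78 cytosolic ribosomal protein genes 26 were lower in share, 5 higher and 47 not called (median -0.14), and 45 lower and none higher after thinning (median -0.36). Without the cells carrying memory genes 13 were lower and 11 higher (median -0.01), where 9.72% of all genes were lower and 13.8% higher. Rps27 was at 4001, 3102 and 3024 CPM against 6040, 5203 and 5415 (-0.73 ± 0.08), while Rps2 was at 4389, 5248 and 4908 against 2299, 4133 and 3674 (0.55 ± 0.09).

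**Figure D2:**
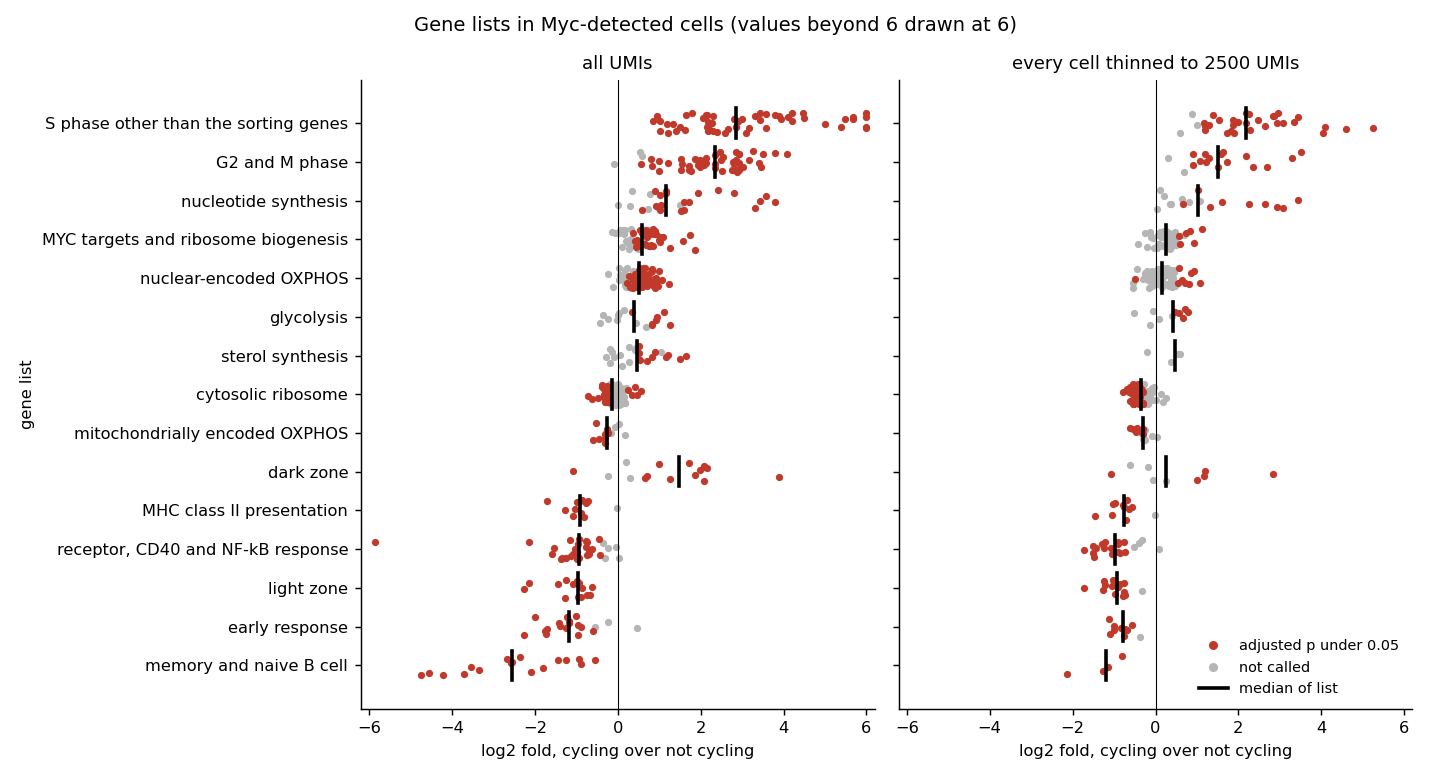
Log2 fold of each member of 15 gene lists, cycling over not cycling Myc-detected cells, with all UMIs (left) and after thinning (right), red where edgeR's adjusted p was under 0.05, with the list median as a black bar. The medians of MYC targets and nuclear-encoded OXPHOS shrink from 0.58 and 0.52 to 0.24 and 0.15 after thinning, and that of the receptor, CD40 and NF-kB list is -0.93 and -0.97.

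Genes induced through the antigen receptor, CD40 and NF-kB were lower in cycling cells: 26 of 31 measured genes lower and none higher (median log2 fold -0.93). After thinning 17 of 21 were lower and none higher (median -0.97). Without the cells carrying memory genes, where 9.72% of all genes were lower and 13.8% higher, it was 26 of 30 (median -0.96). Without cells carrying at least 3 markers of other cell types, where 13.5% of all genes were lower and 16% higher, it was 23 of 30 (median -0.93). The list summed to 3436, 2254 and 3128 CPM in cycling cells and to 6807, 5893 and 5200 in not cycling cells. Its member Ccl5 gave 123 of the 1503 list UMIs in not cycling cells of NP 1 and 205 of 4396 in OVA 1, from 2 cells each. In cycling cells of OVA 1 it gave 41 of 12721.

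Cd83, a membrane protein that marks light zone cells, was at 472.2, 300.4 and 355.5 CPM in cycling and 882.4, 999.6 and 774.2 in not cycling cells. Its log2 fold was -1.25 ± 0.11 (adjusted p = 2.75e-10), and -1.22 (adjusted p = 1.12e-11) after thinning. Nfkbia was at 399.7, 247.3 and 379.2 CPM against 772.1, 759.4 and 651.5 (-1.09 ± 0.12, adjusted p = 9.69e-09), and -0.86 after thinning. Il4i1, an amino acid oxidase induced by CD40 and IL-4, was at 173.9, 98.3 and 201.5 CPM against 741.2, 777.1 and 588.3 (-2.14 ± 0.15, adjusted p = 1.75e-12). For these 3 genes every cycling library lay below every not cycling library. Per cell the reading differed, as cycling cells held more UMIs. Cd83 had 5.51, 4.14 and 5.02 UMIs per cycling cell against 4.35, 6.29 and 4.49, so its count per cell overlapped while its share of transcripts was lower. Il4i1 was lower per cell as well, with 2.03, 1.35 and 2.85 UMIs against 3.65, 4.89 and 3.41.

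Cd40, the receptor for T cell help, was at 91.0, 62.9 and 108.0 CPM against 145.6, 197.8 and 184.7 (-0.99 ± 0.16, adjusted p = 1.01e-05). With all UMIs it was found in 45.2%, 43.5% and 64.5% of cycling and 41.3%, 48.9% and 57.0% of not cycling cells. Bcl2a1b, a survival gene that NF-kB induces, was at 171.4, 87.9 and 137.6 CPM against 366.2, 275.5 and 172.6 (-0.93 ± 0.16). Icam1, an adhesion molecule, was at 151.8, 86.1 and 152.7 CPM against 207.4, 201.3 and 153.1 (-0.45 ± 0.16, adjusted p = 0.0327), nearly level in the OVA library. Irf4, which MYC-expressing cells induce with strong help, was at 38.8, 13.9 and 25.9 CPM against 35.3, 45.9 and 41.3 (-0.71 ± 0.27, adjusted p = 0.047), with overlap. Batf, a cofactor of Irf4, did not pass with all UMIs, at 99.6, 51.7 and 43.4 CPM against 88.2, 106.0 and 51.0 (-0.35 ± 0.20, adjusted p = 0.187), but did at equal depth (-1.49, adjusted p = 0.000423). That call rested on few cells: after thinning Batf was found in 15.5%, 11.1% and 7.69% of cycling and 17.0%, 15.4% and 8.85% of not cycling cells. With all UMIs these shares were 29.9%, 22.0% and 25.8% against 10.9%, 26.7% and 13.4%. Tfap4, a MYC target that prolongs its program, was at 20.6, 15.6 and 11.8 CPM against 22.1, 0.0 and 3.6 and did not pass (1.21 ± 0.52, adjusted p = 0.0765).

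Early response genes, which switch on within minutes of a signal, were lower for 16 of 19 and higher for none (median -1.19), and 9 of 10 after thinning. Ier5, Junb, Dusp2 and Zfp36l1 had log2 folds of -1.71 ± 0.15, -1.25 ± 0.12, -1.01 ± 0.11 and -0.96 ± 0.11, each called after thinning too. Egr1, induced by receptor signals, was at 77.9, 62.2 and 47.9 CPM against 180.9, 257.8 and 63.2 (-1.23 ± 0.20, adjusted p = 1.51e-05), overlapped between arms and was not called after thinning (-0.38, adjusted p = 0.385). Several of these genes also respond to tissue dissociation, a list of which 7 of 9 were lower, and that part was not tested.

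Light zone genes as a list were lower for 15 of 15 measured, and 13 of 14 after thinning. MHC class II presentation genes, which display antigen to T cells, were lower for 11 of 12 and 10 of 11 after thinning (medians -0.92 and -0.75). Cd74, the invariant chain, was at 12433, 14247 and 15658 CPM against 24275, 30398 and 26679 (-0.94 ± 0.08, adjusted p = 6.32e-11), while per cell it was 145, 196 and 221 UMIs against 120, 191 and 155. H2-Oa, the alpha chain of the H2-O dimer that restrains peptide loading, was at 115.9, 141.4 and 140.4 CPM against 379.4, 381.5 and 516.6 (-1.70 ± 0.12) and was lower per cell too, 1.35, 1.95 and 1.98 against 1.87, 2.40 and 2.99. H2-Aa, an alpha chain of MHC class II, had a log2 fold of -1.02 ± 0.08.

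Genes of memory and naive B cells had a low list median: 17 of 17 measured lower, median -2.55, and 4 of 4 after thinning. Klf2, a factor for recirculation, was at 3.6, 3.1 and 6.7 CPM against 145.6, 106.0 and 134.9 (-4.74 ± 0.24, adjusted p = 1.67e-15). Ccr6, a chemokine receptor of memory precursors, was at 0.7, 0.0 and 7.2 CPM against 48.5, 14.1 and 102.1 (-4.22 ± 0.35). Ephx1, an epoxide hydrolase, was at 6.4, 6.3 and 4.4 CPM against 48.5, 63.6 and 54.7 (-3.34 ± 0.30). The arms did not overlap for these 3 genes. After the cells with at least 2 of the 7 genes were left out, a step that uses some of the same genes, 9 of 11 were lower (median -1.19).

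Among called genes with a mean log2 CPM of at least 5 and the same direction in all 3 libraries, the 12 with the lowest log2 folds were Plac8, Capg, Ddit4, Pglyrp1, AW112010, Il4i1, Ly6d, Sub1, H2-Q7, Tspan32, Ms4a4c and Crlf2, from -3.05 (Plac8) to -1.81 (Crlf2). Capg, which caps actin filaments, was at 6.8, 10.4 and 36.5 CPM against 97.1, 60.0 and 273.5 (-2.98 ± 0.20). Ly6d, a surface protein of B lineage cells, was at 84.6, 154.9 and 238.8 CPM against 542.7, 413.3 and 1077 (-2.08 ± 0.14) and kept its fold after thinning (-2.15, adjusted p = 4.44e-20). Both arms were separate in each library for these genes.

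Dark zone genes, several of them mitotic, were mostly higher with all UMIs and less clearly so at equal depth. Of 16 measured, 12 were higher and 1 lower, and 4 higher and 1 lower of 9 after thinning (medians 1.49 and 0.24). Gcsam, a germinal center signaling adaptor, was at 202.7, 254.6 and 137.6 CPM against 35.3, 77.7 and 30.4 (2.07 ± 0.18, 0.99 after thinning). Hmces, which shields abasic sites in DNA, was at 391.8, 579.7 and 447.7 CPM against 176.5, 300.2 and 151.9 (1.26 ± 0.12). Foxp1, which restrains germinal center entry, was the lower one, at 149.0, 167.4 and 123.8 CPM against 264.7, 455.6 and 237.0 (-1.08 ± 0.13).

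The defining regulators of zone and germinal center state were not separated. Cxcr4, the receptor that holds cells in the dark zone, was at 79.3, 31.6 and 47.4 CPM against 88.2, 21.2 and 32.8 (0.29 ± 0.23, adjusted p = 0.357). Foxo1, which maintains the dark zone, was at 97.8, 118.8 and 72.3 CPM against 114.7, 109.5 and 98.5 (-0.23 ± 0.16, adjusted p = 0.295). Bcl6, the master repressor of the germinal center, was at 70.0, 60.8 and 66.1 CPM against 101.5, 67.1 and 53.5 (-0.03 ± 0.19, adjusted p = 0.923). All 3 overlapped between the arms. The signs for Cxcr4 and Bcl6 changed under some other settings, and a missed threshold does not show that the levels are equal.

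Among germinal center factors 6 of 27 were higher and 11 lower, where 17.3% of all genes were higher and 14.4% lower. After thinning 2 of 23 were higher and 4 lower, where 10.5% of all genes were higher and 11% lower. Mybl2, a cell cycle transcription factor, was at 103.1, 85.4 and 84.6 CPM against 13.2, 14.1 and 3.6 (3.52 ± 0.32), and Ezh2, the histone H3 lysine methyltransferase of Polycomb, had a log2 fold of 1.38 ± 0.17. Lmo2, a light zone cofactor, was at 61.2, 69.8 and 55.3 CPM against 145.6, 187.2 and 126.4 (-1.28 ± 0.15). In the hypermutation and switching list 9 of 17 were higher and none lower, and 3 of 7 after thinning. Ung, which removes uracil from DNA and is itself an S phase gene, was at 125.9, 130.6 and 135.2 CPM against 4.4, 7.1 and 10.9 (3.88 ± 0.27), and Msh6 of mismatch repair at 94.6, 71.2 and 76.7 against 13.2, 28.3 and 17.0 (2.06 ± 0.26).

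Plasma cell genes did not move as a list, with 2 of 12 higher and 2 lower. Jchain, which joins IgM and IgA polymers, was at 753.1, 1094 and 686.8 CPM against 423.6, 808.9 and 297.8 (0.83 ± 0.11, adjusted p = 7.9e-07), and Prdm1, the plasma cell regulator, had too few UMIs to test. In the apoptosis list 1 of 16 was higher and 2 lower. Mcl1, a survival protein, was at 175.3, 146.6 and 121.1 CPM against 317.7, 190.7 and 228.5 (-0.76 ± 0.13).

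Cells left out of both arms show the shape between them. Myc-detected cells were placed in 4 steps by how many of the 8 genes they had (0-1, 2-3, 4-5 and 6-8, with 233, 123, 119 and 618 cells), and CPM is given here over all UMIs without further scaling, as mean ± SD over 3 libraries. Cd83 was at 860 ± 93.0, 853 ± 182, 740 ± 282 and 330 ± 82.2 CPM. Nfkbia was at 709 ± 79.6, 667 ± 194, 600 ± 194 and 308 ± 78.5, and Il4i1 at 683 ± 98.5, 643 ± 142, 470 ± 102 and 119 ± 46.8. For these 3 genes the last step was the lowest in each library. Over the first 3 steps the libraries differed: in NP 2 Cd83 was at 921.9, 758.4 and 652.2 CPM, in NP 1 at 905.8, 1063 and 1055.

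Ptma was at 1725 ± 284, 2386 ± 372, 3125 ± 297 and 5385 ± 376 CPM, in the same order in all 3 libraries, and Ran was at 380 ± 65.3, 661 ± 160, 761 ± 72.1 and 1338 ± 81.7, with NP 1 level between 2-3 and 4-5 genes (769.0 and 748.2). Klf2 was at 126 ± 26.3, 40.5 ± 35.9, 9.6 ± 13.7 and 3.6 ± 0.608 CPM, with 21.6, 17.9 and 81.9 in the 3 libraries at 2-3 genes. Top2a stayed at 41.3 ± 20.9 and 46.0 ± 17.6 CPM in the first steps, varied widely between libraries at 4-5 genes (164.6 ± 115) and reached 367.5 ± 6.5 at 6-8. Ccne1 showed nearly all of its signal in the last step, with 3.4 ± 1.05, 1.33 ± 2.31, 7.93 ± 3.77 and 40.9 ± 6.11 CPM. The number of genes detected also rises with a cell's UMIs, whose part in these steps was not tested.

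**Figure D3:**
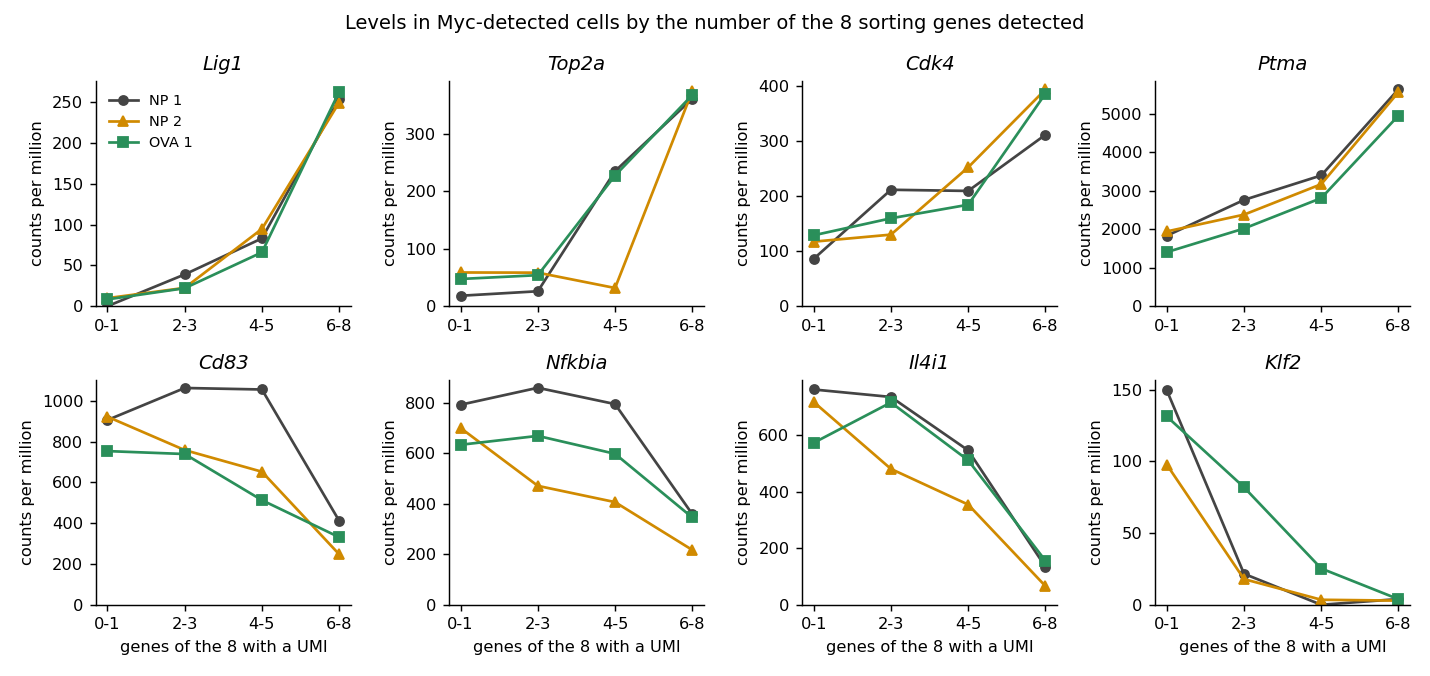
CPM of 8 genes in Myc-detected cells, by how many of the 8 sorting genes had a UMI, 1 line per library. Ptma steps up at each point, while Cd83, Nfkbia and Il4i1 are lowest at 6-8 genes in each library.

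A second comparison held the arm fixed and set Myc-detected against Myc-undetected cells, with every cell thinned to 2500 UMIs, across 7592 genes in 1 fit of 12 sums. In cycling cells 21 genes (0.277%) were higher and 7 (0.0922%) lower with Myc. In not cycling cells 74 (0.975%) were higher and 43 (0.566%) lower. Without NP 1 these counts were 4, 3, 37 and 22. The receptor, CD40 and NF-kB list was higher with Myc in both arms, 9 of 31 in cycling cells (median log2 fold 0.82) and 21 of 31 in not cycling cells (median 1.03), with none lower in either. One of the 21 is Ccl5, which rested on a few cells with natural killer markers. In the same fit, the list was lower in cycling than in not cycling cells for 15 of 31 genes when Myc was detected (median -0.89, where 5.15% of all genes were higher and 4.19% lower). When Myc was not detected, among many more cells, it was lower for 27 and higher for 1 (median -0.72, where 19.5% were higher and 26.9% lower).

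Nfkbia was at 670.4, 366.7 and 455.4 CPM in cycling cells with Myc and 215.6, 148.9 and 252.7 in cycling cells without (log2 fold 1.25 ± 0.14, adjusted p = 1.6e-10). In not cycling cells it was at 1106, 512.8 and 789.4 CPM against 314.1, 225.4 and 386.7 (1.30 ± 0.11, adjusted p = 2.38e-17). Myc-detected libraries lay above Myc-undetected ones in each arm. Cycling cells with Myc thus stood, for Nfkbia, above not cycling cells without it in the same library, as read from these values. Cd83 differed by 0.90 ± 0.14 and 1.06 ± 0.10, and Il4i1 by 1.69 ± 0.20 and 1.24 ± 0.11, in cycling and not cycling cells.

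Batf was at 84.5, 66.7 and 30.8 CPM against 20.8, 19.3 and 20.5 in cycling cells (1.54 ± 0.41, adjusted p = 0.0555) and at 289.4, 143.6 and 42.5 against 27.3, 19.9 and 24.9 in not cycling cells (2.38 ± 0.29, adjusted p = 6.81e-10). The not cycling values with Myc rested on 34, 14 and 12 UMIs in 8, 6 and 10 cells. Ccnd2 was at 33.8, 44.4 and 12.3 CPM against 5.7, 3.2 and 5.0 in cycling cells (2.45 ± 0.63, adjusted p = 0.046), on 6, 4 and 2 UMIs, and at 136.2, 92.3 and 70.8 against 16.3, 11.7 and 20.8 in not cycling cells (2.42 ± 0.33). Egr1 and Siah2, a ubiquitin ligase, were higher with Myc in both arms, by 1.61 ± 0.26 and 1.35 ± 0.22, and by 1.32 ± 0.23 and 1.35 ± 0.22.

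Mki67 was lower in cycling cells with Myc, 360.6, 344.4 and 196.9 CPM against 563.1, 466.0 and 340.5 (-0.67 ± 0.14, adjusted p = 0.00406). Of 59 measured MYC target and ribosome biogenesis genes, 3 were higher in cycling and 9 in not cycling cells, and none lower. Of S phase genes none of 55 was called in either arm, and of the 78 nuclear-encoded oxidative phosphorylation genes none was higher and 1 was lower in cycling cells and none was called in not cycling cells.

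Whether these Myc-linked differences depend on the arm was tested as a difference of differences. It was called for 1 gene in each direction (0.0132% each): Gm42418, a transcript overlapping ribosomal RNA, and S100a8, a neutrophil gene, both outside the lists of B cell programs. No gene of the receptor, CD40 and NF-kB list was called (median -0.18), and 367 genes had an unadjusted p under 0.05. For Nfkbia the difference was -0.05 ± 0.17 and for Cd83 -0.16 ± 0.17. In simulated data at these library sizes this test recovered 13% of genes changed 2-fold and 65% of those changed 4-fold (log2 of 1 and 2), so differences of that smaller size would mostly be missed. The simulation changed only genes above a minimum mean count and used a fixed spread, so recovery of genes with fewer UMIs was not simulated.

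**Figure D4:**
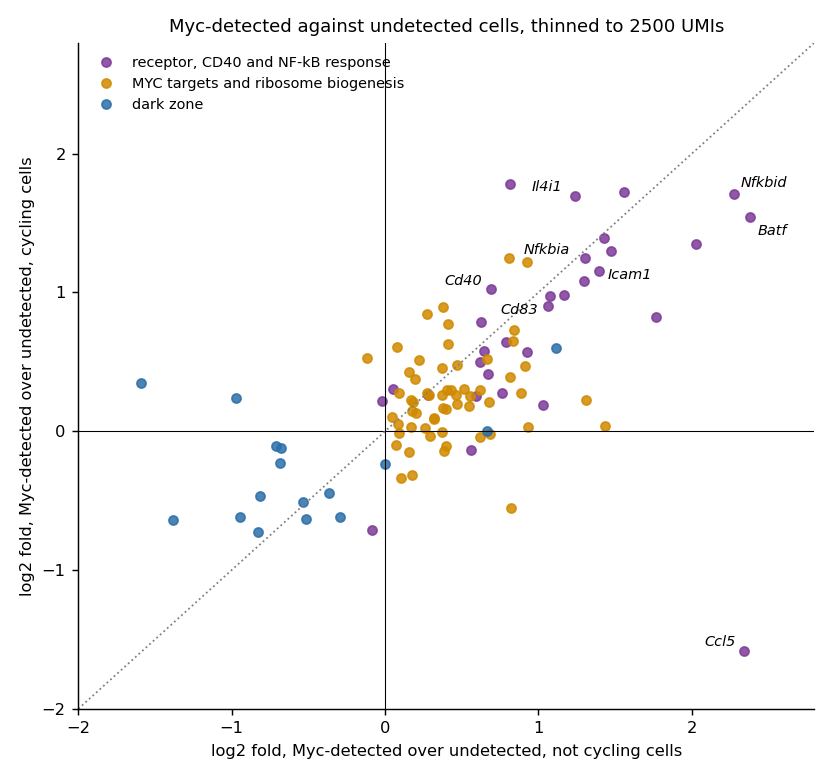
Log2 fold of Myc-detected over Myc-undetected cells in not cycling (x axis) and cycling cells (y axis), thinned to 2500 UMIs, for 3 gene lists, with the dotted line where both are equal. Most receptor, CD40 and NF-kB genes lie above 0 on both axes, with medians of 1.03 and 0.82.

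The cycling difference was next compared between NP and OVA libraries, with 1 OVA library and 1 residual degree of freedom. The log2 fold was more positive in OVA for 3 of 8512 genes (0.0352%) and more negative for 0 (0%), and 332 genes had an unadjusted p under 0.05. Nfkbid, an atypical inhibitor of NF-kB, was at 74.0 and 57.7 CPM in cycling and 348.6 and 339.1 in not cycling NP cells, but at 88.3 and 93.6 CPM in OVA cells. After thinning no gene was called, and 155 had an unadjusted p under 0.05.

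The share of cycling cells was compared between Myc-detected and Myc-undetected cells at equal depth. After thinning, 50.4%, 36.0% and 31.9% of Myc-detected cells were cycling (exact 95% intervals 41.8 to 58.9, 26.6 to 46.2 and 25.5 to 38.7), against 35.1%, 33.1% and 29.0% of Myc-undetected cells. The not cycling arm held 33.3%, 39.0% and 55.4% of Myc-detected and 41.3%, 45.6% and 49.4% of Myc-undetected cells, so in OVA 1 both arms were larger with Myc and fewer cells lay between them. The difference in the cycling share was 7.03 ± 7.16 percentage points (SD, n = 3), positive in 3 of 3 libraries. At this depth it was largest in NP 1 (15.3 points, against 2.91 and 2.89). An exact two-sided sign-flip permutation test gave p = 0.25, the smallest that 3 libraries allow. With all UMIs, where deep cells pass both detection limits more often, the difference was 23.8 points. With cells thinned to 4000 UMIs it was 10.1 points, and NP 1 did not stand out. There 61.4%, 56.6% and 48.4% of Myc-detected cells were cycling, against 52.4%, 45.4% and 38.4% of Myc-undetected cells.

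Immunoglobulin sequences placed the same cells in clones, defined within a library by V gene, J gene and junction. Shares are of cells with a productive heavy chain, found in 180, 188 and 252 of the 241, 209 and 287 cycling Myc-detected cells. In the not cycling arm they were 27, 41 and 112 of 46, 45 and 142. Cycling cells were more often in clones of at least 2 cells: 51.7%, 44.7% and 59.5% against 25.9%, 34.2% and 42.9% of not cycling cells. The difference of 17.6 ± 7.65 points was positive in 3 of 3 libraries (exact two-sided permutation p = 0.25, the smallest possible). Myc-undetected cells had the same direction, with 51.1%, 45.4% and 60.5% of cycling against 41.0%, 37.98% and 47.9% of not cycling cells in such clones. Class-switched cells made up 55.9%, 53.2% and 48.0% of cycling Myc-detected cells with a heavy chain. Of the not cycling ones they made up 33.3%, 63.4% and 43.8% (9 of 27, 26 of 41 and 49 of 112). The difference was 5.53 ± 16.4 points (exact two-sided permutation p = 0.75), and -2.97 without NP 1.

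Both arms occurred within single clones. Of 667 clones with a Myc-detected cell in either arm, 79 had at least 2 such cells: 53 held only cycling, 4 only not cycling and 22 both kinds. Most such cells with a heavy chain were cycling to begin with (180, 188 and 252 against 27, 41 and 112). Whether the clone counts differ from what that balance alone would give was not tested. The junctions of 5 clones are printed to show what such relatives share: 4 clones that span the arms and, last, the one with most cycling members. Letters run 5' to 3' on the coding strand, from the codon of the conserved cysteine to that of the conserved tryptophan, with the codons between them in capitals.
OVA 1, IGHV2-5 with IGHJ4: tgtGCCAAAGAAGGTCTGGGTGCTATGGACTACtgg
OVA 1, IGHV1-26 with IGHJ4: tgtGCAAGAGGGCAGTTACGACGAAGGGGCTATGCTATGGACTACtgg
NP 1, IGHV1-72 with IGHJ2: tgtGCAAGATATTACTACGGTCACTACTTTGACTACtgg
NP 2, IGHV1-72 with IGHJ2: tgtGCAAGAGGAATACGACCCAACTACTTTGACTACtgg
NP 2, IGHV1-72 with IGHJ1: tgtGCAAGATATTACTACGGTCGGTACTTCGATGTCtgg

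The first clone had 42 cells in all, with 6 cycling Myc-detected cells (IgG2b or IgG2c) and 1 not cycling (IgG2c). The second had 19 cells, with 5 cycling (1 of them IgM) and 2 not cycling. The third had 24 cells, with 2 and 1, all 3 of them IgM. The fourth, of 13 cells, ran against the overall balance with 1 cycling and 3 not cycling cells, all 4 of them IgG3. The fifth had 30 cells, of which 10 were Myc-detected and cycling and 0 Myc-detected and not cycling; 6 of the 10 were IgM, 2 IgG1 and 2 IgG2c. IGHV1-72, the V gene typical of the anti-NP response, made up 58.3% and 66.5% of cycling and 51.9% and 68.3% of not cycling Myc-detected cells with a heavy chain in NP 1 and NP 2, and 4.37% and 4.46% in OVA 1.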

How the data were processed

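The deposited gene table of the authors holds raw UMI counts per gene and cell, not normalized. The submitters' processing notes name Cell Ranger and mm10, without versions in the sources used here. The authors' deposited contig tables gave the immunoglobulin genes, junctions and isotypes; the bulk libraries were not used here.

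Here cells were filtered and sorted as described above with Python 3.11.15, and counts were summed per library and arm. A quasi-likelihood fit in edgeR 4.0.16 under R 4.3.3 tested the sums, using TMM scaling, filterByExpr, library as a block and Benjamini-Hochberg adjustment over all genes tested, at 0.05. The 225 immunoglobulin genes and the 9 genes that chose the cells were left out. CPM values of single genes by library and arm carry the TMM scaling; those of Myc, of sums over genes, in the 4 steps and by Myc detection use plain totals. SE is the absolute log2 fold over the square root of F. In simulated counts, 47% of genes changed 2-fold and 96% of those changed 4-fold (log2 of 1 and 2) were recovered, with 5 false calls among 8302 genes. Only genes above a minimum mean count were changed, and the spread was fixed rather than taken from the data. The arms of 1 library come from the same capture, and their deviations correlated at 0.41, 0.45 and 0.51 within a library, so the block stands. Across libraries the values lay between -0.18 and -0.26. Deviations were taken from the mean of the 3 libraries, which pulls those values below 0, so they add no support. Doublets were not called; an alternative dropped the 28 cells of the arms that had over 1 heavy chain. Intervals cover counting error only.

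Named genes were the 12 highest and 12 lowest called genes with a mean log2 CPM of at least 5 and the same direction in 3 libraries, up to 4 members of each list with the smallest p, 20 fixed genes, and up to 6 per direction elsewhere. Some genes are not reported here. The cells, lists and tests were chosen with earlier results of these data known, and the alternative without cells carrying memory genes was chosen after seeing the data. Other alternatives were DESeq2 1.42.0, other thinning, scaling, cell, arm and Myc limits, no filter, no block and leaving out each library.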

Additional observations from a re-analysis of the deposited data

Results flagged for a closer look

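The cycling against not cycling log2 fold differed between OVA and NP libraries for 3 genes, by edgeR's test of the difference itself, with 1 OVA library. For Nfkbid the difference was 2.31 ± 0.29 (adjusted p = 1.89e-07), and 1.54 ± 0.60 (adjusted p = 0.523) after thinning. For Plac8, a small cysteine-rich protein, it was 3.21 ± 0.56 (adjusted p = 0.000891), with 1.8, 1.0 and 39.2 CPM in cycling and 52.9, 88.3 and 205.4 CPM in not cycling cells. For Ccl5, a chemokine of cytotoxic cells, it was 7.33 ± 0.98 (adjusted p = 9.85e-07). Ccl5 rested on 5 cells: 2 not cycling cells of NP 1 held 123 UMIs, 121 of them in 1 cell that also held the library's 106 natural killer marker UMIs of that arm, 2 not cycling cells of OVA 1 held 205, and 1 cycling cell of OVA 1 held 41. Without cells carrying at least 3 markers of other types, 0 Ccl5 UMIs were left in each arm.

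The same log2 fold differed between Myc-detected and Myc-undetected cells for 2 genes. For Gm42418 the difference was -0.78 ± 0.13 (adjusted p = 0.000104), with 8383, 10933 and 9912 CPM in not cycling Myc-detected cells and 4308, 8245 and 8464 in not cycling Myc-undetected cells. For S100a8 the fitted difference of 10.22 depends on the prior count and is no measure of size: Myc-detected cells held 0, 0 and 3 UMIs in the cycling and 0, 0 and 1 in the not cycling arm, against 0, 796 and 2533 in not cycling Myc-undetected cells.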

How the results depend on the processing

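Genes higher in cycling Myc-detected cells numbered 1469, against 235 and 250 after thinning with either seed, 686 after thinning with the arms kept from all UMIs, 813 with DESeq2, 735 with at least 2 Myc UMIs, and 841 (without OVA 1) to 1352 leaving out 1 library. Genes lower numbered 1225, against 246, 289 and 593 in the thinned fits, 615 with DESeq2, 732 without the library block, 613 with at least 2 Myc UMIs, 810 without cells carrying memory genes, and 560 (without OVA 1) to 1036 leaving out 1 library. Between Myc-detected and undetected cycling cells, the 21 higher genes became 383 with all UMIs, 9 with another seed, 0 without the block (345 in either direction at an unadjusted p under 0.05) and 4 to 22 leaving out 1 library. The 7 lower genes became 183, 3 with DESeq2, 14 without the filter, 0 without the block and 3 to 8. In not cycling cells the 74 higher genes became 124 with all UMIs, 15 without the block and 37 to 69, and the 43 lower became 10 with DESeq2, 1 without the block, 69 without the filter and 22 to 28. The difference of differences, 1 gene each way, had 0 positive and 4 negative genes with all UMIs, 0 and 0 with DESeq2 and without the block (228 and 222 at an unadjusted p under 0.05), 2 negative with another seed or without the filter, and 0 to 2 positive and 1 to 2 negative leaving out 1 library. Of the 3 genes that differed between NP and OVA, only Nfkbid was still measured in the thinned fit. Its difference was 1.54 ± 0.60 there, against 2.31 ± 0.29 with all UMIs, and was no longer called. The cycling share difference was 23.8 points with all UMIs instead of 7.03, the clone difference 27.4 points with at least 5 genes against 0 instead of 17.6, and the class-switched difference -2.97 (without NP 1) to 13.4 points leaving out 1 library. Of 128 called named genes, 1965 of 1966 values under other settings kept their direction, and 1836 were also called. The exception was Cdkn1b (0.80 without cells carrying memory genes). Among genes not called, Cxcr4 turned to -0.65 after thinning with the arms kept and -0.088 without cells carrying memory genes. Bcl6 turned to 0.43 and 0.35 in the thinned fits, 0.071 without the filter, 0.13 with the stricter cell limits, 0.79 with 2 Myc UMIs, and ranged from -0.349 to 0.176 leaving out 1 library. The causes were not tested. Depth limits both the thinned fits, which hold 2237 of 8512 genes, and the call of a Myc-detected cell.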

Other observations

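Sterol synthesis genes, which supply membrane for growth, were higher in cycling cells for 10 of 22 with none lower. Without the cells carrying memory genes it was 3 of 22, near the 13.8% of all genes that were higher there. None of the 4 that had enough UMIs after thinning was called. Idi1, an isomerase early in the pathway, was at 122.0, 76.8 and 82.6 CPM in cycling and 39.7, 35.3 and 21.9 in not cycling cells (log2 fold 1.64 ± 0.22, adjusted p = 7.08e-07 by edgeR). Interferon response genes were lower for 5 of 11 with none higher, among them Irf7, the interferon regulator, at 10.0, 17.0 and 22.2 CPM against 61.8, 38.9 and 45.0 (-1.38 ± 0.28). B cell markers were lower in share for 8 of 9. Of germinal center B cell markers 5 of 10 were higher and none lower. Without the cells carrying memory genes 1 was higher and 1 lower, where 13.8% of all genes were higher and 9.72% lower. Of other cell types' markers, 1 T cell gene had enough UMIs and was lower (Lck, which B cells also express, -0.98 ± 0.14), none of 3 erythroid genes was called, and no natural killer or myeloid gene could be tested.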
